A study of Mus musculus with 4 samples.

Results

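A set of 40 genes of fat cell formation and lipid storage were compared between DPPIV- and DPPIV+ fibro-adipogenic progenitors (FAPs) of mouse skeletal muscle. They were taken by name from a table of 24421 gene symbols, and all 40 were found in it. They are 13 transcription factors and coactivators, 6 genes of fatty acid uptake, binding and activation, 8 of fatty acid and triglyceride synthesis, 6 of the lipid droplet coat, 2 lipases, and 5 adipokines and adiponectin receptors. FAPs are stromal cells between the muscle fibres that can form fibroblasts or fat cells, and DPPIV is the surface peptidase encoded by Dpp4. The data were 4 bulk RNA sequencing libraries, of DPPIV- and of DPPIV+ FAPs from each of 2 wild-type mice, here called mouse 1 and mouse 2. Both mice had been given a CSF1R inhibitor, PLX73086 in the chow per the study's methods, for 3 weeks and then a regular diet for 3 days, so no group was untreated. The inhibitor depletes macrophages. The labels give neither the age nor the sex of these 2 mice. Cells were sorted as PI- CD31- CD45- Sca1+ and then by DPPIV, without a gate on PDGFRA.

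Fat cell formation runs through a cascade of transcription factors. CEBPB and CEBPD act early and are followed by PPARG and CEBPA, which keep each other on and drive the lipid genes of the mature cell. The EBF factors and ZFP423 act in committed preadipocytes, while ZFP521 opposes ZFP423 and EBF1. A fat cell then takes up fatty acids that lipoprotein lipase frees from lipoproteins, makes others itself, stores them as triglyceride in droplets coated by perilipins, and releases them through lipases. In muscle, FAPs are the known source of the fat cells that appear between fibres after injury or in disease.

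The libraries held between 18240110 and 20879405 reads counted on genes, at which 3 reads, the limit that a count of 0 allows, stand for 0.143 to 0.167 CPM (reads scaled to the library total). Dpp4 was at 89.8 and 39.7 CPM in the DPPIV- libraries of mouse 1 and mouse 2 and at 728 and 575 CPM in their DPPIV+ libraries. All 6 FAP markers were abundant, with a summed level of 28662 to 36404 CPM, most of it Dcn and Col1a1. They also differed between the cell types, and edgeR and DESeq2, the tests used below, both called all 6. By log2 fold change of DPPIV+ over DPPIV- FAPs, Lum (-0.85), Col1a1 (-0.40), Pdgfra (-0.38) and Dcn (-0.28) were lower. Ly6a (0.58) and Cd34 (0.52) were higher. The sum of 8 markers of mature fat cells was 1.50 to 2.91 CPM, Lep and Cfd had no read in any library, and most of the sum was Car3, which muscle fibres also express. Markers listed for other cells had reads in spite of the gates. The most abundant was Thbs4, listed for tendon, at 1153 to 2217 CPM, while the FAP marker Pdgfra was at 1159 to 1657 CPM. Which cells these reads came from was not tested. Markers that moved with a result are given beside it.

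Every gene that reached 2 CPM in 2 or more libraries was tested in 1 model with mouse and cell type (edgeR's quasi-likelihood F test with Benjamini-Hochberg adjustment), and a gene was called at an adjusted p under 0.05. A log2 fold change below is that of DPPIV+ over DPPIV- FAPs with its standard error (SE). Of 11588 genes tested, 33.0% were called, 15.9% higher and 17.2% lower, so a call by itself was common in this comparison. Of the 40 genes, 32 were tested, of which 8 were higher and 10 lower in DPPIV+ FAPs and 14 were not called. The share called, 56.2%, is given here as a description beside that 33.0%, since Acsbg1 and Plin4 passed the filter on low counts through their DPPIV- libraries alone. The median log2 fold change was -0.10 over the 32 genes and -0.00199 over all genes tested. All 18 genes called had the same sign in both mice. In 9 of the 32 genes both DPPIV+ libraries lay above both DPPIV- libraries and in 13 they lay below, and over all genes tested these shares were 27.8% and 28.6%. A call with at least a 2-fold change was made for 7.79% of all genes (2.91% higher and 4.88% lower), and here for Pparg and Acsbg1, both lower, with Lpl just short of it. DESeq2, a more conservative test here that called 16.6% of all genes (7.97% higher and 8.59% lower), kept 8 of the 18, Ebf1, Ebf2, Zfp521 and Cebpb as higher and Cebpa, Lpl, Fabp4 and Acsbg1 as lower. Without mouse in the model, 18.3% of all genes were called (8.64% higher and 9.66% lower) and 9 of the 18 were kept. Sorted bulk RNA cannot tell fewer expressing cells from less RNA per cell.

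**Figure D1:**
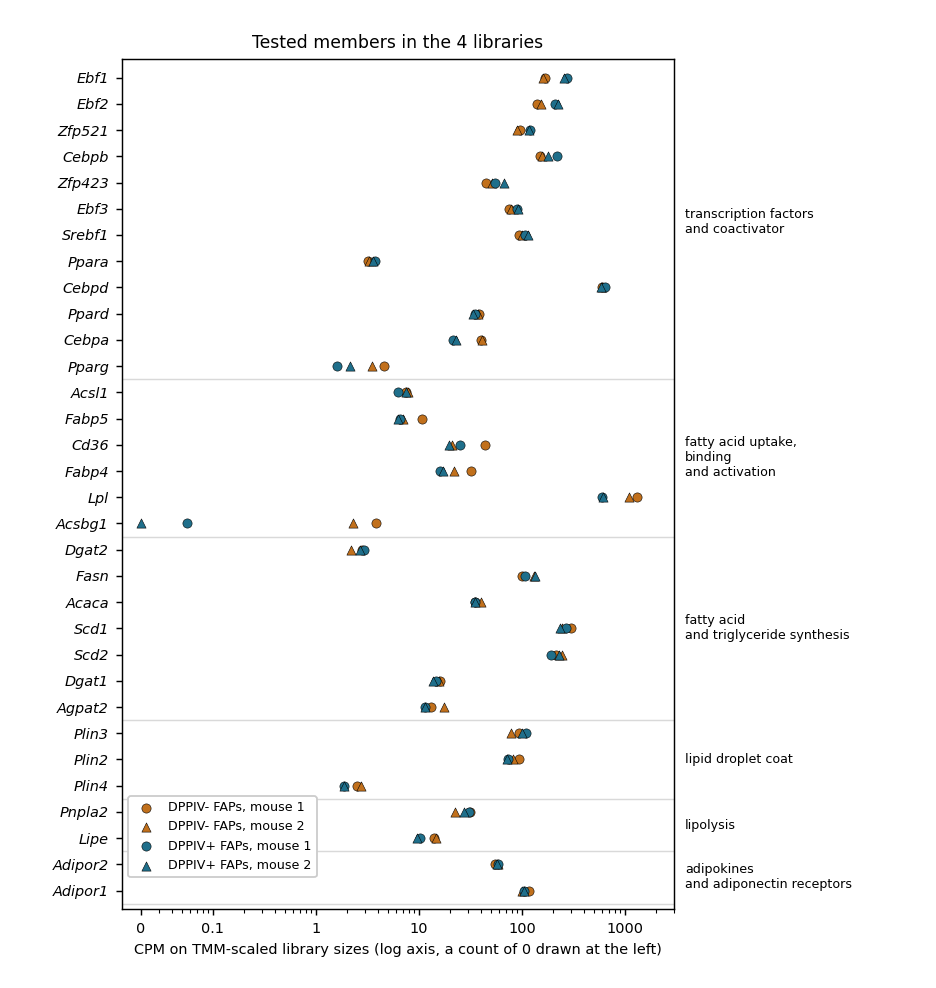
CPM of the 32 tested genes (rows, ordered by role and by log2 fold change) in the 4 libraries, on a log axis, with orange for DPPIV-, blue for DPPIV+, circles for mouse 1 and triangles for mouse 2. The blue points lie to the right for the EBF genes and to the left for most uptake genes, and Acsbg1 stands alone with 1 and 0 reads in DPPIV+ FAPs.

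The summed level of the 40 genes was 3960 and 3701 CPM in the DPPIV- libraries of mouse 1 and mouse 2 and 3459 and 3401 CPM in the DPPIV+ libraries. Without Lpl the order turned, with 2646 and 2595 CPM in DPPIV- and 2862 and 2791 CPM in DPPIV+ FAPs. A single gene thus set which cell type had the larger sum. Per kilobase of exon, which allows levels of different genes to be compared, Cebpd was the most abundant member in both cell types, at 161 ± 0.353 CPM per kb (SD, n = 2 mice) in DPPIV- and 165 ± 11.5 in DPPIV+ FAPs. In DPPIV- FAPs, Lpl at 115 ± 14.1 and Cebpb at 102 ± 2.42 CPM per kb followed, close to each other but without overlap between the mice. In DPPIV+ FAPs, Cebpb at 132 ± 19.1 preceded Lpl at 57.6 ± 0.857 CPM per kb. With the longest transcript as the length, Lpl took the first place in DPPIV- FAPs at 294 CPM per kb and the second in DPPIV+ FAPs at 147.

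Promoters are shown for the genes of the list that edgeR called and in which the letters of CEBP or PPAR sites were found. Of these genes, DESeq2 called Acsbg1 alone. Each is a RefSeq promoter on GRCm38.p6, from 250 bases before to 50 after an annotated start, written 5′ to 3′ on the gene's strand with the matches in capitals. Pparg lies at chr6:115421816-115422115 (plus strand, the last of its 3 listed starts), Acsbg1 at chr9:54661836-54662135, Cd36 at chr5:17835847-17836146, Plin2 at chr4:86670010-86670309 and Zfp423 at chr8:87959546-87959845 (all minus strand). In Pparg, Acsbg1 and Zfp423 the capitals mark the CEBP letters TTGCNNAA on either strand, and in Cd36 and Plin2 they mark the PPAR pattern, a pair of AGGTCA letters in the same direction 1 base apart with at most 2 mismatches, here on the opposite strand.
Pparg: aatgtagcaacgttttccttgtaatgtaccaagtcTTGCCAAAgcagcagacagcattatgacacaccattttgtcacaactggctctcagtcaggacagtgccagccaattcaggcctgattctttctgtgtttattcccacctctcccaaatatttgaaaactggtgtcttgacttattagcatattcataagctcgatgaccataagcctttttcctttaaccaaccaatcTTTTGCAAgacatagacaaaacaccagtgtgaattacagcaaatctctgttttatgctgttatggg
Acsbg1: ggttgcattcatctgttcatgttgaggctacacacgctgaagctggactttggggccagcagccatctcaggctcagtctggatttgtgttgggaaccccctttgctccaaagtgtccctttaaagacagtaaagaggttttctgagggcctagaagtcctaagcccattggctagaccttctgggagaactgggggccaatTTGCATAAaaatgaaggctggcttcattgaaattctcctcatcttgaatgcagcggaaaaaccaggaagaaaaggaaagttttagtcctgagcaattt
Cd36: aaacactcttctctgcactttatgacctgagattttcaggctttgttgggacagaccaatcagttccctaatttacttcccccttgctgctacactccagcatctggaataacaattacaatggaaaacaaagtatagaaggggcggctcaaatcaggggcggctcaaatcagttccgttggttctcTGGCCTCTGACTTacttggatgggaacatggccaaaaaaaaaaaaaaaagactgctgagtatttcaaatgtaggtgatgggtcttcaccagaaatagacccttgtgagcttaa
Plin2: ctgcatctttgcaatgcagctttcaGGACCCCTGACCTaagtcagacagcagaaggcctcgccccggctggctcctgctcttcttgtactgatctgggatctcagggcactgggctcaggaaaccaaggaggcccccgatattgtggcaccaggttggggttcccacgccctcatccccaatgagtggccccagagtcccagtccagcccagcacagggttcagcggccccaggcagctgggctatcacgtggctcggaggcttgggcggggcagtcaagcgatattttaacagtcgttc
Zfp423: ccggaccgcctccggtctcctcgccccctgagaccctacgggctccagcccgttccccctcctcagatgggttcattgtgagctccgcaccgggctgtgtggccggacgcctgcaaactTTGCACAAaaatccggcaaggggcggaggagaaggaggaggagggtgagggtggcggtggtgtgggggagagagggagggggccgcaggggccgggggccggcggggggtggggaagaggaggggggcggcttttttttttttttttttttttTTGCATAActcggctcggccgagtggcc

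The CEBP letters stood at -215 to -208 and at -16 to -9 from the start of Pparg, at -48 to -41 in Acsbg1, and at -131 to -124 and 22 to 29 in Zfp423. The PPAR pattern stood at -63 to -51 in Cd36 and at -225 to -213 in Plin2. Promoters were listed for 28 of the 40 genes, 38 promoters in all. The PPAR pattern was in 2 of the 38 (5.26%) and in 3.86% of 32851 promoters of the same length, the CEBP letters in 6 (15.8%) and in 10.8%, and the EBF letters CCCNNGGG in 12 (31.6%) and in 13.7%. The SREBP letters TCACNCCAC were in 1, that of Acsl1 (2.63%), and in 1.24%. The genes with CEBP letters went both ways in edgeR, with Pparg and Acsbg1 lower and Zfp423 higher in DPPIV+ FAPs. Cidec, Lep and Plin1, which also had these letters, were not tested. Of the genes with EBF letters, edgeR called Cebpb, Ebf3, Srebf1 and Zfp423 higher, and DESeq2 called Cebpb alone. Acsl1, Adipor1, Adipor2, Plin4 and Ppara had EBF letters and were not called, and Cidec and Plin1 were not tested. All 4 patterns were searched on both strands, and 0 pairs of matches to different patterns shared bases. These matches are descriptions of letters in a short window and not evidence of binding.

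Among the transcription factors, Cebpb, Srebf1, both zinc finger factors and the EBF genes were higher in DPPIV+ FAPs, while the pair that drives the late programme, Pparg and Cebpa, was lower. Of 12 factors tested, 7 were higher, 2 lower and 3 not called in edgeR, with a median log2 fold change of 0.22. DESeq2 called 4 of the 12 higher and 1 lower. Over all genes tested, edgeR called 15.9% higher and 17.2% lower, and DESeq2 called 7.97% higher and 8.59% lower. The 3 EBF genes were all higher. Ebf1 (chr11:44617317-45008091 on GRCm38, plus strand) was at 167 and 161 CPM in the DPPIV- libraries of mouse 1 and mouse 2 and at 275 and 257 CPM in the DPPIV+ libraries. The groups were apart by far more than the mice differed, and the log2 fold change was 0.70 (SE 0.07, edgeR adjusted p = 1.36e-23). Ebf2, which marks committed and brown preadipocytes, was at 141 and 155 CPM against 210 and 226 CPM, a log2 fold change of 0.56 (SE 0.07, edgeR adjusted p = 6.08e-16). Ebf3 rose by 0.24 (SE 0.07, edgeR adjusted p = 0.00103), which DESeq2 did not call (adjusted p = 0.186). Together the EBF genes made up 383 and 394 CPM in DPPIV- and 574 and 575 CPM in DPPIV+ FAPs.

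Tendon cell markers moved with the higher factors. Tnmd (560 and 605 reads in DPPIV- against 954 and 1632 in DPPIV+ FAPs), Scx (18 and 34 against 66 and 143) and Mkx (29 and 52 against 62 and 140) were higher, with log2 fold changes of 1.27, 2.14 and 1.44 (edgeR adjusted p = 3.42e-61, 1.21e-14 and 4.33e-08), and DESeq2 called each. The fourth marker, Thbs4, was lower with a log2 fold change of -0.20 (edgeR adjusted p = 0.026), was not called by DESeq2 (adjusted p = 0.851), and made up most of the sum of 1631 and 2132 CPM in DPPIV- and 1213 and 2322 CPM in DPPIV+ FAPs. None of the 4 was at 0, and the part of tendon cells in the higher factors was not tested.

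Zfp521 and Zfp423, zinc finger factors with opposed roles, were higher side by side. Zfp521, which holds preadipocytes back, was at 95.7 and 89.5 CPM in DPPIV- and 121 and 118 CPM in DPPIV+ FAPs, with a log2 fold change of 0.37 (SE 0.07, edgeR adjusted p = 1.65e-07). Zfp423, which commits cells to the fat lineage, was at 45.3 and 50.8 CPM against 54.6 and 67.1 CPM, a log2 fold change of 0.34 (SE 0.07, edgeR adjusted p = 1.24e-05, DESeq2 adjusted p = 0.0752). For both genes the 2 DPPIV+ libraries lay above the 2 DPPIV- libraries. Cebpb, an early inducer, was at 151 and 157 CPM in DPPIV- and 219 and 179 CPM in DPPIV+ FAPs, and its log2 fold change of 0.36 (SE 0.07, edgeR adjusted p = 3.65e-07) came to 0.53 in mouse 1 and 0.19 in mouse 2. Srebf1, which switches on fatty acid synthesis genes, had the smallest rise called, 0.19 (SE 0.07, edgeR adjusted p = 0.0132, DESeq2 adjusted p = 0.338).

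Pparg (chr6:115360951-115490399, plus strand), the master regulator of fat cells, was a gene of few reads in both cell types. It had 96 reads (4.59 CPM) and 68 reads (3.48 CPM) in the DPPIV- libraries of mouse 1 and mouse 2, and 29 reads (1.61 CPM) and 39 reads (2.14 CPM) in the DPPIV+ libraries. Both DPPIV+ libraries lay below both DPPIV- libraries. The log2 fold change was -1.10 (SE 0.26, edgeR adjusted p = 0.000129), or 2.14-fold lower, with -1.51 in mouse 1 and -0.70 in mouse 2, and DESeq2 did not call it (adjusted p = 0.128). Cebpa (chr7:35119293-35121928, plus strand), its partner, was at 40.0 and 40.9 CPM in DPPIV- and 21.3 and 22.7 CPM in DPPIV+ FAPs. Its libraries agreed closely within each cell type, and the log2 fold change of -0.88 (SE 0.09, edgeR adjusted p = 8.57e-22) was -0.91 in mouse 1 and -0.85 in mouse 2. Cebpa was 1 of 3 genes of the list, with Lpl and Acsbg1, that were also called in a test against a 1.5-fold change. Of these, Acsbg1 passed the filter on low counts through its DPPIV- libraries alone.

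The other 3 factors tested were not called. Cebpd, which acts beside Cebpb, was at 601 and 603 CPM against 647 and 587 CPM, groups that overlapped, with a log2 fold change of 0.03 (SE 0.07). The fatty acid sensors Ppara and Ppard had log2 fold changes of 0.17 (SE 0.24) and -0.15 (SE 0.08). Ppargc1a, the coactivator of mitochondrial and brown fat genes, was under the filter with 12 and 8 reads in DPPIV- and 4 and 3 in DPPIV+ FAPs.

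**Figure D2:**
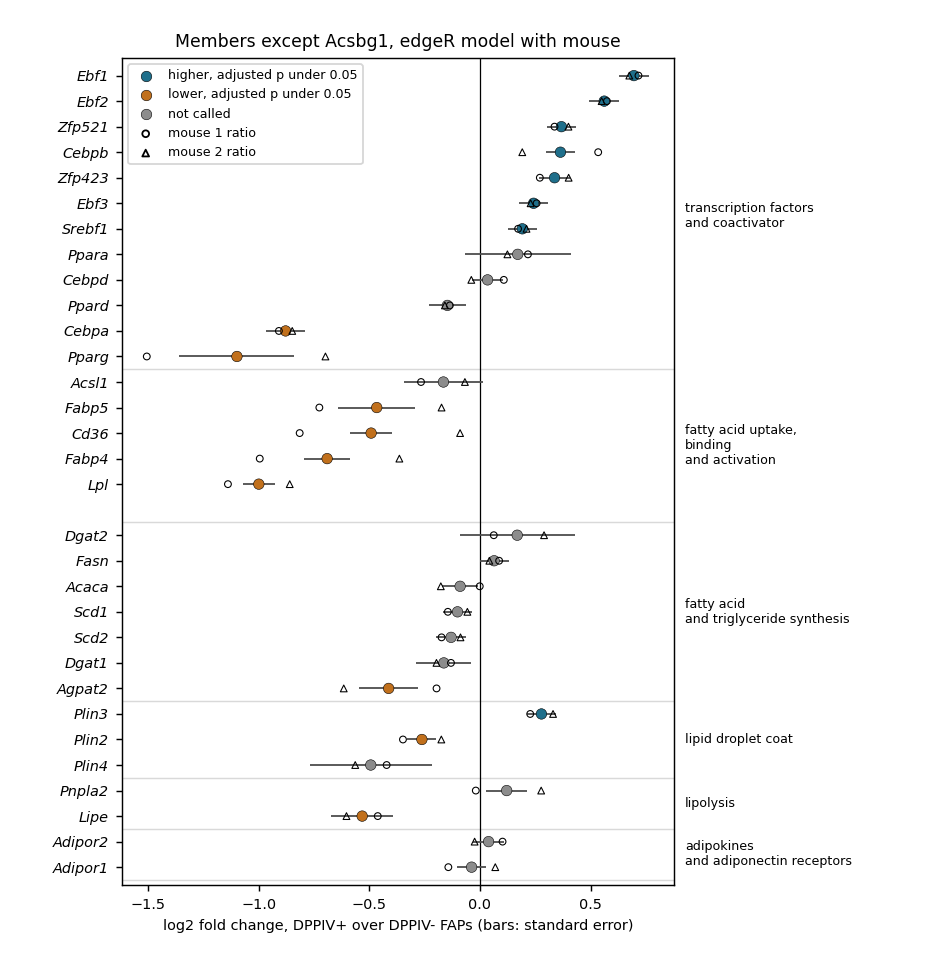
Log2 fold change of DPPIV+ over DPPIV- FAPs for the tested genes except Acsbg1 (rows, by role), with bars for the standard error and open symbols for the ratio in mouse 1 (circles) and mouse 2 (triangles). Blue genes were higher and orange genes lower at an edgeR adjusted p under 0.05, from Ebf1 at 0.70 to Pparg at -1.10, and grey genes were not called.

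Genes of fatty acid uptake, binding and activation were called in 1 direction: 5 of 6 were lower in DPPIV+ FAPs, Acsl1 was not called, and none was higher, with a median log2 fold change of -0.59. DESeq2 called 3 of them lower. Of all genes, 17.2% were called lower by edgeR and 8.59% by DESeq2. Acsbg1, among the 5, passed the filter through its DPPIV- libraries alone. Lpl (chr8:68880491-68907448 on GRCm38, plus strand), the lipoprotein lipase that frees fatty acids from circulating triglyceride, led by far in level. It was at 1314 and 1106 CPM in the DPPIV- libraries of mouse 1 and mouse 2 and at 597 and 609 CPM in the DPPIV+ libraries. The groups did not overlap, and Lpl was 2.00-fold lower (log2 fold change -1.0, SE 0.07, edgeR adjusted p = 7.26e-43), by -1.14 in mouse 1 and -0.86 in mouse 2. DESeq2 called it too (adjusted p = 2e-23).

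Acsbg1 (chr9:54604877-54661870, minus strand), an acyl-CoA synthetase known mainly from brain, adrenal gland and testis, was close to absent from DPPIV+ FAPs. Its DPPIV- libraries held 81 reads in mouse 1 and 45 in mouse 2, and its DPPIV+ libraries 1 and 0 reads. In mouse 1 the DPPIV- level was 69.7 times the DPPIV+ level (95% counting interval 12.2 to 2786), and in mouse 2 it was at least 14-fold higher against a floor of 3 reads in that library. The edgeR adjusted p was 1.41e-25 and that of DESeq2 was 5.55e-05. Both are a description, since Acsbg1 passed the filter on low counts only through the DPPIV- libraries, where it was high. Acsl1, the main long-chain acyl-CoA synthetase of fat cells, had a log2 fold change of -0.17 (SE 0.18).

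The fatty acid carriers were lower with a gap that was wider in mouse 1. Fabp4, the fatty acid binding protein of fat cells and capillary endothelium, was at 32.1 and 22 CPM in DPPIV- and 16.1 and 17.1 CPM in DPPIV+ FAPs, which gave a log2 fold change of -0.69 (SE 0.10, edgeR adjusted p = 3.12e-10) that came to -1.0 in mouse 1 and -0.36 in mouse 2. Cd36, a fatty acid transporter that endothelial cells and macrophages share with fat cells, was at 43.8 and 21 CPM against 24.9 and 19.7 CPM. Its groups overlapped, and its log2 fold change of -0.49 (SE 0.09, edgeR adjusted p = 1.16e-06) was -0.81 in mouse 1 and -0.09 in mouse 2. DESeq2 did not call Cd36 (adjusted p = 0.120), and without the DPPIV- library of mouse 1 its log2 fold change was 0.091 (edgeR adjusted p = 0.809). Fabp5, a carrier shared by many cells including macrophages, was at 10.8 and 7.05 CPM against 6.50 and 6.25 CPM, a log2 fold change of -0.47 (SE 0.17, edgeR adjusted p = 0.0256, DESeq2 adjusted p = 0.485).

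Most markers of endothelium and of macrophages and blood were lower too, with sums that differed more in mouse 1 once Tek is left out. Over all 11 endothelial markers the sum was higher in DPPIV+ FAPs, at 282 and 200 CPM in the DPPIV- libraries of mouse 1 and mouse 2 and 520 and 474 CPM in the DPPIV+ libraries, and most of it was Tek, which had a log2 fold change of 1.42. Without Tek, left out after its values were seen, the sum was 94.9 and 50.4 CPM in DPPIV- and 53.5 and 46.4 CPM in DPPIV+ FAPs. Of the 11 endothelial markers 10 were tested, and edgeR called 7 lower and 1 higher. The sum of 9 macrophage and blood markers was 373 and 218 CPM against 232 and 205 CPM, with 7 of the 9 lower in edgeR. Most of this sum was Lyz2, at 220 and 125 CPM against 131 and 121 CPM. The lower call of Lyz2 was lost with robust moderation (edgeR adjusted p = 0.575). No marker of either list was at 0. Over all genes tested, edgeR called 17.2% and DESeq2 8.59% lower. Of the 14 lower markers of these 2 lists DESeq2 called 0, with 4 at an unadjusted p under 0.05. Markers of mural cells, the cells that wrap small vessels, were lower in both mice, at 151 and 152 CPM against 55.6 and 70.6 CPM, with 6 of 7 lower in edgeR and 4 in DESeq2. The part of these cells in the lower Fabp4, Cd36, Fabp5, Pparg and Lpl was not tested.

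**Figure D3:**
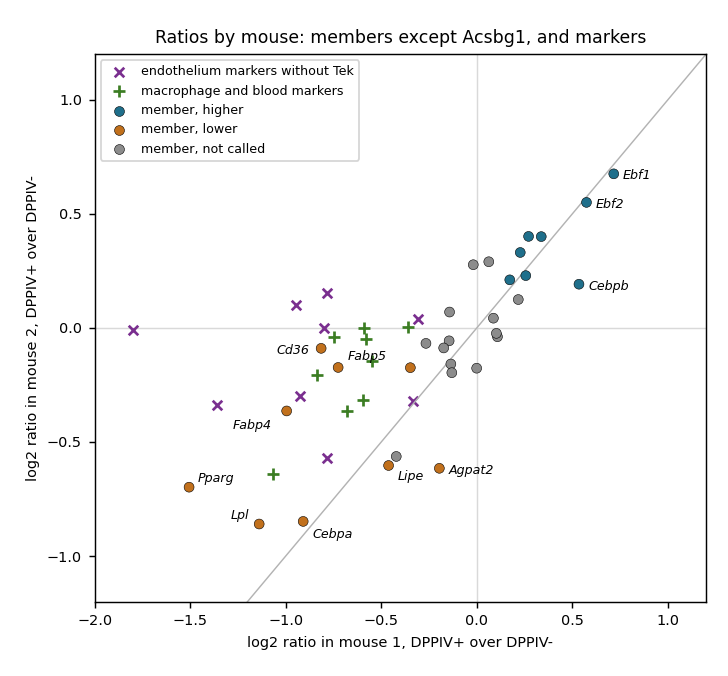
Log2 ratio of DPPIV+ over DPPIV- FAPs in mouse 1 (x axis) against mouse 2 (y axis) for the tested genes of the list except Acsbg1 (dots coloured by call), for endothelial markers without Tek (crosses) and for macrophage and blood markers (plus signs), with a line where the mice agree. Ebf1, Ebf2 and Cebpa lie near the line, and Lpl (-1.14, -0.86) lies somewhat above it. Cd36 (-0.81, -0.09) and Fabp4 (-1.0, -0.36) lie further above it among the markers, and Pparg (-1.51, -0.70) also lies further above the line.

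**Figure D4:**
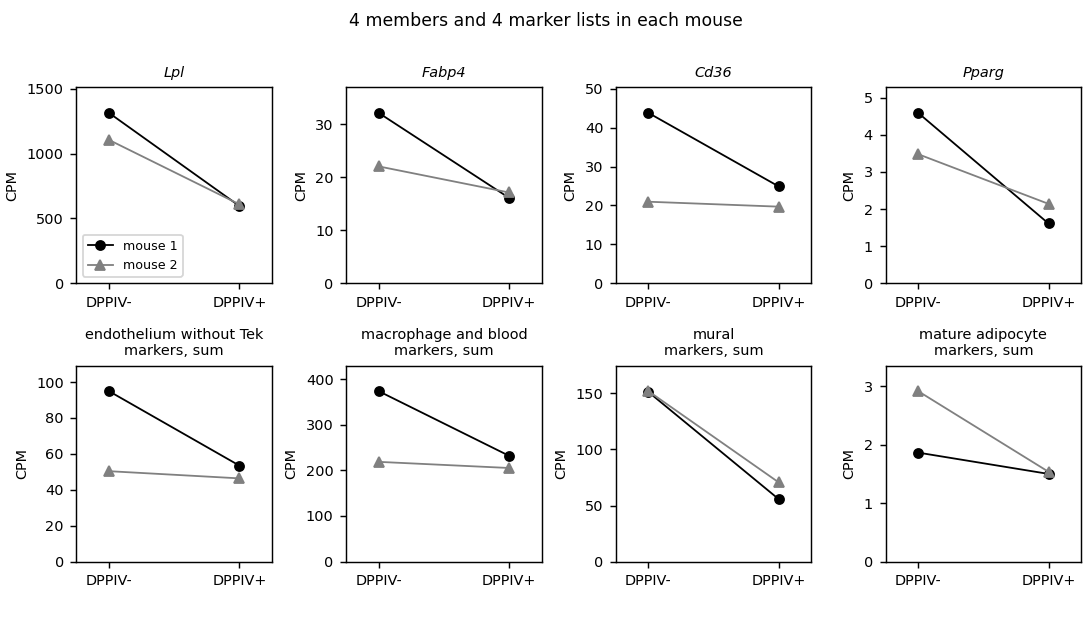
CPM of Lpl, Fabp4, Cd36 and Pparg (upper row) and summed CPM of endothelial (without Tek), macrophage and blood, mural and mature fat cell markers (lower row) in DPPIV- and DPPIV+ FAPs, with a line for each mouse. The macrophage sum and the endothelial sum without Tek were lower in DPPIV+ than in DPPIV- FAPs mainly in mouse 1 (with Tek the endothelial sum was higher, at 520 and 474 against 282 and 200 CPM), whereas Lpl and the mural sum were lower in DPPIV+ FAPs of both mice.

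Of 7 synthesis genes tested, Agpat2 was lower and 6 were not called, with a median log2 fold change of -0.10. Fasn, the fatty acid synthase, was at 101 and 131 CPM in DPPIV- and 107 and 135 CPM in DPPIV+ FAPs, so that the mice differed more than the cell types. The desaturases Scd1 and Scd2 were abundant in both cell types, Scd1 at 299 and 243 CPM against 270 and 234 CPM and Scd2 at 217 and 244 CPM against 192 and 230 CPM, and both pairs of groups overlapped. The log2 fold changes of the 6 genes lay between -0.16 (Dgat1, which joins the last fatty acid to triglyceride) and 0.17 (Dgat2, an enzyme of the same step), with Acaca, which commits carbon to fatty acids, at -0.09. Agpat2, which makes phosphatidic acid on the way to triglyceride and is mutated in a lipodystrophy, was at 13 and 17.7 CPM in DPPIV- and 11.4 and 11.6 CPM in DPPIV+ FAPs, and the log2 fold change was -0.41 (SE 0.13, edgeR adjusted p = 0.0073), which DESeq2 did not call (adjusted p = 0.354), and it shares 64 exon bases with the endothelial gene Egfl7 on the other strand, which had 37 to 110 reads. Gpd1, which supplies the glycerol backbone, was under the filter with 21 and 27 reads in DPPIV- and 9 and 30 reads in DPPIV+ FAPs.

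The droplet coat genes of mature fat cells were close to nil: Plin1 had 3 and 5 reads in DPPIV- and 0 and 0 in DPPIV+ FAPs, and Cidea and Cidec, which fuse droplets, had 1 read each in all 4 libraries together. The 2 perilipins found in most cells were well expressed and went opposite ways. Plin2 was at 93.7 and 81.2 CPM in DPPIV- and 73.6 and 72 CPM in DPPIV+ FAPs, which gave a log2 fold change of -0.26 (SE 0.07, edgeR adjusted p = 0.000343). Plin3 was at 93.4 and 79.2 CPM against 109 and 99.6 CPM, a log2 fold change of 0.28 (SE 0.07, edgeR adjusted p = 0.000125). In neither gene did the groups overlap, but DESeq2 called neither (adjusted p = 0.167 and 0.0867). Plin4, a coat protein of fat cells and muscle, was not called at 2.53 and 2.76 CPM against 1.89 and 1.87 CPM (log2 fold change -0.49, SE 0.28).

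Of the lipases, Pnpla2, which takes the first fatty acid off triglyceride, was not called (log2 fold change 0.12, SE 0.09). Lipe, the hormone-sensitive lipase that takes the next, was at 14 and 14.7 CPM in DPPIV- and 10.2 and 9.66 CPM in DPPIV+ FAPs. The groups did not overlap, with a log2 fold change of -0.53 (SE 0.14, edgeR adjusted p = 0.000683, DESeq2 adjusted p = 0.148). The adipokines were not detected as expressed: Adipoq and Retn had 1 read each, both in the DPPIV- library of mouse 1, and Lep had none, which allows up to 0.143 to 0.167 CPM. The adiponectin receptors were well expressed and not called, Adipor1 with a log2 fold change of -0.04 (SE 0.07) and Adipor2 with 0.04 (SE 0.07).

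Counting on overlapping genes bears on some of these values. Exons of 12 of the 40 genes overlap another gene in GENCODE M21, mostly on the opposite strand, and whether the counting used strand is not given in the sources used here. The longest overlap among called genes was that of Lipe with 918 bases of the antisense gene 4732471J01Rik, which had 1 to 5 reads. Cebpb shares 312 bases with Tmem189, which had 440 to 557 reads, and Srebf1 shares 109 with Rai1, which had 768 to 1032. Their values are uncertain to the extent that reads were assigned to the partner.

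A wider list of 86 genes of the same pathways, with 70 tested, had 12 higher, 17 lower and 41 not called, or 41.4% called beside 33.0% of all genes (15.9% higher and 17.2% lower), and a median log2 fold change of -0.03. Dlk1, Klf5 and Slc27a6 passed the filter through their DPPIV- libraries alone, where they were high, and the counts are a description. Of the 70 genes, DESeq2 called 6 higher and 10 lower, beside 7.97% higher and 8.59% lower of all genes. Among 20 other regulators tested, 3 were higher and 7 lower. The largest falls called were in Dlk1 (Pref-1), which holds preadipocytes undifferentiated, at 118 and 110 reads in DPPIV- and 15 and 9 in DPPIV+ FAPs (log2 fold change -3.08, SE 0.30, edgeR adjusted p = 8.07e-23), and in Klf5, an inducer of Pparg, at 135 and 163 reads against 19 and 25 (log2 fold change -2.60, SE 0.26, edgeR adjusted p = 3.23e-22). The rises called by edgeR were small, with Insig1, which restrains sterol synthesis and whose groups overlapped, at 0.23 and Tle3, a partner of PPARG, at 0.21. DESeq2 called 0 of the 20 regulators higher, with 0 higher at an unadjusted p under 0.05 (adjusted p = 0.336 for Insig1 and 0.258 for Tle3). Of 11 other uptake and activation genes tested, 2 were higher and 3 lower. Vldlr, a lipoprotein receptor that works beside lipoprotein lipase, rose by 0.89 (SE 0.07) and the transporter Slc27a3 by 0.68 (SE 0.12), while the transporters Slc27a6 and Slc27a1 had log2 fold changes of -1.30 (SE 0.26) and -0.95 (SE 0.15).

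The other enzymes were called in both directions. Of 18 other synthesis genes tested, 2 were higher and 3 lower. Agpat4, an acyltransferase of phospholipid synthesis, rose by 0.66 (SE 0.07) and Acly, which makes acetyl-CoA for fatty acids, by 0.56 (SE 0.07). Acacb, the acetyl-CoA carboxylase that restrains oxidation, had a log2 fold change of -1.47 (SE 0.17). The phosphatase Lpin1 was at -0.31 (SE 0.09), which DESeq2 did not call (adjusted p = 0.308). Of 9 other droplet and lipolysis genes tested, 3 were higher and 3 lower. Mgll, the lipase of monoglycerides and of the endocannabinoid 2-AG, was at 33.4 and 30 CPM in DPPIV- and 105 and 119 CPM in DPPIV+ FAPs, 3.53-fold higher (log2 fold change 1.82, SE 0.07, edgeR adjusted p = 5.87e-141). Of the 70 genes tested, Mgll alone was called at least 2-fold higher and 7 were called at least 2-fold lower, beside 2.91% and 4.88% of all genes. Among the 7 were Dlk1, Klf5 and Slc27a6, which passed the filter through their DPPIV- libraries alone. Cavin1, a caveolar coat gene counted under its older symbol Ptrf, rose by 0.37 (SE 0.07). G0s2, an inhibitor of the lipase PNPLA2, had a log2 fold change of -1.05 (SE 0.09) and Cav1, caveolin, of -0.67 (SE 0.07). Of 12 oxidation genes tested, 2 were higher, 1 was lower and 9 were not called in edgeR, while DESeq2 called 0 higher and 1 lower. Pdk4, a kinase that holds back glucose oxidation, rose by 0.45 (SE 0.10, DESeq2 adjusted p = 0.0731). Ucp2, a mitochondrial carrier, was lower with a log2 fold change of -1.31 (SE 0.08).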

How the data were processed

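Counts per gene of 4 libraries were analysed, 1 DPPIV- and 1 DPPIV+ library from each of 2 mice. The authors demultiplexed paired-end reads with bcl2fastq 2.20, aligned them to mm10 with STAR and tallied them per gene with RnaReadCounter. They deposited the raw counts of 24421 symbols, of which 7548 were at 0 in all libraries. The labels give the tibialis anterior and a NEBNext Ultra II Stranded kit, whereas the study's methods give both hindlimbs and a TruSeq Stranded kit. The annotation release is not given in the sources used here. Totals of 18240110 to 20879405 reads per library limit the precision of genes with few reads, and intervals and limits cover counting error only.

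The 11588 genes that reached 2 CPM in 2 or more libraries were kept. Library sizes were scaled by TMM, and cell types were compared by the quasi-likelihood F test of edgeR 4.0.16 in R 4.3.3, two-sided, with mouse as a block and Benjamini-Hochberg adjustment over all genes kept. The SE is the log2 fold change over the square root of F. The prior degrees of freedom were infinite with 1 residual degree of freedom, so the spread of a gene was that of the trend at its abundance, and p-values of abundant genes are very small. CPM use scaled library sizes. Ratios per mouse used a prior count of 0.125. The mice pair the libraries per the labels, and differences between the mice in the 2 cell types correlated at 0.415 over 11588 genes, which are not independent. DESeq2 1.42.0 and the other alternatives are given in the closing section. The tests were first run on simulated data. Exon lengths and overlaps came from GENCODE M21, and promoters from RefSeq.

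The 40 genes, the wider lists and the markers were chosen with earlier results of these data known. Reads or CPM per library are given for members that differed 2-fold or more, for Pparg and for members under the filter. In each wider list the 2 highest and 2 lowest log2 fold changes past the threshold with 1 sign in both mice are named, except for 1 gene that is not reported here.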

Additional observations from a re-analysis of the deposited data

How the results depend on the processing

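Of the 18 genes called, 5 (Cebpa, Ebf1, Ebf2, Lpl and Acsbg1) stayed called in the same direction under every alternative that gives a test, except that Ebf1 and Ebf2 were lost in the test against a 1.5-fold change and that Acsbg1 was removed by the filters of 2 CPM in at least 3 libraries and of 10 counts in every library. Over all genes, the 3826 calls became 1918 with DESeq2, 2120 with no replicate block and 1092 against a 1.5-fold change. In the same order, the 8 higher genes of the list became 4, 3 and 0, the 10 lower ones 4, 6 and 3, the 12 higher ones of the wider list 6, 7 and 2, and the 17 lower ones 10, 11 and 9. Beside the 0, glmTreat in edgeR had 1 higher gene at an unadjusted p under 0.05. With no replicate block, 9 of the 18 calls in the list were lost, among them Cd36, Cebpb and Plin3. Leaving out the block also changes the estimate of spread, and the part of the pairing by mouse was not tested. RLE or upper-quartile scaling, other filters, the likelihood ratio test, robust moderation and an adjusted p under 0.01 kept each count within 1.5 times, and upper-quartile scaling lost Srebf1 and gained Scd2 (edgeR adjusted p = 0.036).

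Leaving out 1 library, in a model of cell type alone, left 1364 to 2139 calls over all genes, 3 to 5 higher and 3 to 8 lower in the list, and 4 to 7 higher and 9 to 13 lower in the wider list. The fewest calls came without a DPPIV+ library. The sign turned in 1 called gene of the list and in 8 that were not called. The called gene was Cd36, whose log2 fold change ran from -0.97 without the DPPIV- library of mouse 2 to 0.091 without that of mouse 1 (edgeR adjusted p = 0.809), and the cause was not tested. With 1 mouse left out, signs could be read but not tested, and for Acsbg1, with 0 reads in 1 library, no log2 fold change is given there. The edgeR SE follows the trend at a gene's abundance and not its own spread between the n = 2 mice. It was wider for genes with few reads such as Pparg (SE 0.26) than for abundant ones such as Lpl (SE 0.07).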

Other observations

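Thrsp, a regulator of fat synthesis under the filter on low counts, had 27 and 40 reads in the DPPIV- libraries of mouse 1 and mouse 2 and 3 and 5 in the DPPIV+ libraries. Of 5 tested muscle fibre markers none was called by edgeR or by DESeq2, none had an unadjusted p under 0.05, and their list summed to 48.8 to 75.8 CPM. Glial markers summed to 18.9 to 28.1 CPM and satellite cell markers to 1.37 to 1.62 CPM.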
